A study of Mus musculus with 8 samples.

Results

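The 3 genes of the mouse heterochromatin protein 1 (HP1) family, Cbx1, Cbx3 and Cbx5, were followed through a microarray study of pre-iPSCs in which 1 of them, Cbx3, was targeted by siRNA. Every probe set whose annotated symbol was Cbx1, Cbx3 or Cbx5, alone or as one of several symbols, was taken, which gave 15 of the 45037 probe sets tested, 5 for each of these 3 of 18193 genes. The rule reads the annotation only. Pre-iPSCs are cells that entered reprogramming towards induced pluripotent stem cells and stopped short of it. On each of 8 arrays RNA was measured 3 days into siRNA treatment in embryonic stem cell medium, as total RNA extracted with Trizol and hybridised to an Affymetrix expression array.

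The Cbx3 siRNA group had 3 arrays. The 3XHMT group, in which siRNAs against the H3K9 methyltransferase genes Ehmt1, Ehmt2 and Setdb1 were given together, had 2 arrays. The control group, with siRNA against luciferase, a gene these cells lack, had 3 arrays. All groups share the same cell type and medium, and no other allele or agent is named. The labels speak of biological replicates but do not state whether cultures, transfections or cell lines differed, so every p-value measures the spread between these arrays, which may be technical. In such bulk RNA, fewer cells that make a transcript and less transcript per cell cannot be told apart, and no protein was measured.

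HP1 proteins read the repressive histone mark H3K9me2/me3 with an N-terminal chromodomain and gather other proteins through a C-terminal chromoshadow domain, which also pairs HP1 molecules with each other. Cbx5 encodes HP1 alpha and Cbx1 encodes HP1 beta, which are best known at pericentromeric heterochromatin. Cbx3 encodes HP1 gamma, which is also found over the bodies of active genes. Ehmt1, Ehmt2 and Setdb1 write the mark that all HP1 proteins read. The comparisons asked how far Cbx3 transcript was lowered, whether Cbx1 or Cbx5 transcript was higher where Cbx3 was lowered, and whether any HP1 transcript differed where the writers were targeted.

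The start-site regions are shown because Cbx3 and Cbx5 each begin head to head with a gene for an RNA-binding protein that was measured on the same arrays. The nearest annotated start sites of Cbx3 and Hnrnpa2b1 lay 722 bases apart, those of Cbx5 and Hnrnpa1 lay 545 bases apart, and Cbx1 had its nearest divergent neighbour, Snx11, at 11580 bases. Each sequence runs 5′ to 3′ on the strand of its gene, from 250 bases before the start site to 50 after it, and comes from RefSeq for build GRCm38.p6. Cbx1 is at chr11:96788885-96789184 on the plus strand, Cbx3 at chr6:51470366-51470665 on the plus strand, and Cbx5 at chr15:103239803-103240102 on the minus strand. Capitals mark the letters TGCGCA, which read the same on both strands and occur within the recognition sequence of the transcription factor NRF1. They were picked after the sequences had been seen.
Cbx1: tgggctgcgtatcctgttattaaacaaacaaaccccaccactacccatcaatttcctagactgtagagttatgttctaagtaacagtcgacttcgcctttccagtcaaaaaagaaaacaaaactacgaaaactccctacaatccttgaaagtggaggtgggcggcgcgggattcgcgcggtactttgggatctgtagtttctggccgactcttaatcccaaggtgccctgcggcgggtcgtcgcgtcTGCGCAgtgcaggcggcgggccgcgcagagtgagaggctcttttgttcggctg
Cbx3: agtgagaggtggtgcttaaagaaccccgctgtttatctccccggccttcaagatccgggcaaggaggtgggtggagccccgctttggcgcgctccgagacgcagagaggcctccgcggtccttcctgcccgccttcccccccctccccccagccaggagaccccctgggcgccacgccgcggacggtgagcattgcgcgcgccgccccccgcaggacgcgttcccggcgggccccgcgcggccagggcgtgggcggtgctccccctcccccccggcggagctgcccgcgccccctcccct
Cbx5: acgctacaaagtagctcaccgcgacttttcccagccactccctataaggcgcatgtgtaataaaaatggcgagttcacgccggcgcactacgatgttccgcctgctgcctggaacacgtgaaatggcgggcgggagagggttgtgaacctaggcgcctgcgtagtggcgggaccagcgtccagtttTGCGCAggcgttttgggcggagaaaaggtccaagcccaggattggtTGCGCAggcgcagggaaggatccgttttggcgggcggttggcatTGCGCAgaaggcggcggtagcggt

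The Cbx5 window held TGCGCA 3 times, the Cbx1 window once (1 match) and the Cbx3 window 0 times. Of 32851 mouse promoter windows of the same length, 7.76% held it at least once and 0.177% held it 3 or more times. The windows held 34 CG pairs in Cbx3, 29 in Cbx5 and 22 in Cbx1, against a median of 7 over all windows. A second listed start of Cbx3 held 32 CG pairs and no match, and a second listed start of Cbx5 held 8 CG pairs and 1 match. These are matches of letters, not sites of binding.

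RMA forces the arrays to 1 distribution, so their median log2 signals, from 5.87 to 5.90, were made alike by that step. Arrays of a group correlated at 0.984 to 0.994 over all probe sets. They differed in the signal of the middle control probe set for 18S ribosomal RNA, which was 11.5, 12.6 and 9.98 in Cbx3 siRNA replicates 1, 2 and 3, 12.7 and 10.1 in 3XHMT replicates 1 and 2, and 11.2, 12.8 and 10.2 in control replicates 1, 2 and 3. By that signal Cbx3 siRNA and control arrays of the same number belong together, while 3XHMT replicate 1 sits with number 2 and 3XHMT replicate 2 with number 3. These 3 sets of arrays, which the labels do not describe, served as a block in a further fit, called the 18S set block here. Of the markers for the cell label, Pou5f1, a core pluripotency factor, averaged 12.84 ± 0.013 in Cbx3 siRNA arrays (SD, n = 3). It averaged 13.04 ± 0.13 in 3XHMT arrays (n = 2) and 12.99 ± 0.34 in control arrays (n = 3). In control replicates 1, 2 and 3 the pluripotency genes Nanog (4.87, 5.10 and 5.41) and Dppa4 (5.55, 5.54 and 5.48) read far lower. Pou5f1 alone therefore does not settle the cell label. Of 12 pluripotency genes, 9, 10 and 8 lay above the median of all probe sets, 5.89, in the Cbx3 siRNA, 3XHMT and control groups, as did 5, 4 and 4 of 11 fibroblast genes and 3, 2 and 2 of 5 blood genes. Their summed log2 signal ran from 99.4 to 104.3, from 107.0 to 111.8 and from 93.5 to 101.4 for pluripotency in the same order of groups, and the part of this difference in any HP1 value was not tested.

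Cbx3 transcript was lowered in the cells given Cbx3 siRNA, to about 38% to 44% of control in the 3 probe sets with clear signal. The probe set with the highest signal, 1416884_at, read 12.25, 11.83 and 11.79 in Cbx3 siRNA replicates 1, 2 and 3, 13.13 and 13.03 in 3XHMT replicates, and 13.06, 13.16 and 13.33 in control replicates, on the log2 scale. All 3 Cbx3 siRNA arrays lay below every other array, with replicate 1 the least low. The group means were 11.96 ± 0.25, 13.08 ± 0.069 and 13.18 ± 0.14 for Cbx3 siRNA, 3XHMT and control (SD, n = 3, 2 and 3). Against control this was a log2 difference of -1.23 with a standard error of 0.15, or 42.8% of control with a 95% interval of 33.8% to 54.1% (limma, adjusted p = 0.0453 over all probe sets). It ranked 33rd of the 45037 probe sets by p.

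Probe set 1439421_x_at gave a similar picture, with 10.77, 10.35 and 10.21 in Cbx3 siRNA arrays, 11.70 and 11.77 in 3XHMT arrays, and 11.79, 11.67 and 12.07 in control arrays. It fell by 1.40 on the log2 scale against control, to 37.9% (interval 28.9% to 49.7%, limma adjusted p = 0.0465). Probe set 1448504_a_at read 11.71, 11.28 and 11.58 in Cbx3 siRNA arrays, 12.56 and 12.73 in 3XHMT arrays, and 12.60, 12.60 and 12.93 in control arrays. Its Cbx3 siRNA arrays also stood apart from all others. Its mean was 43.9% of control (interval 34.5% to 55.9%), which just missed the threshold of 0.05 (limma adjusted p = 0.0525) and passed it with the 18S set block (adjusted p = 0.00182). Across the 8 arrays the 3 probe sets followed each other with Pearson r of 0.977 to 0.992, which describes these arrays and rests largely on the gap between groups.

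**Figure D1:**
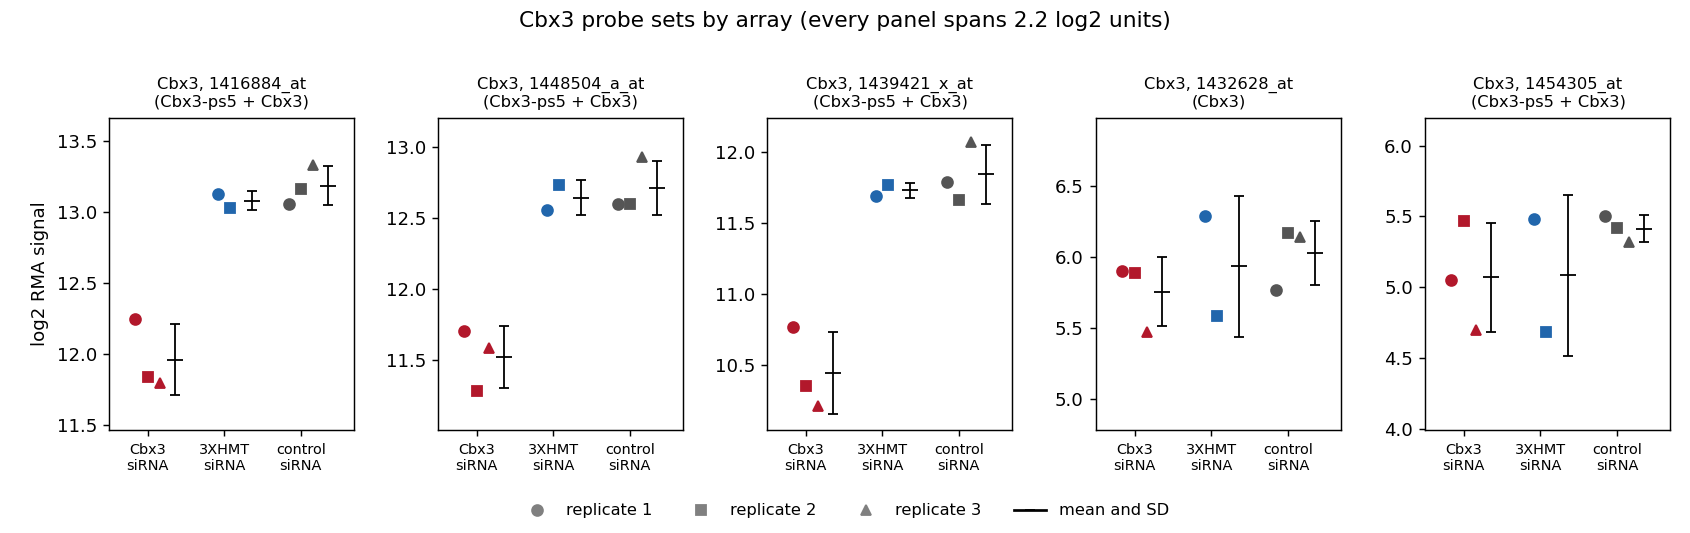
Log2 RMA signal of the 5 Cbx3 probe sets (vertical axes, each panel spanning the same log2 range) by siRNA group (horizontal axis), with 1 symbol per array by replicate number and the mean and SD of each group as a bar; panel titles give the annotated symbols. In the left 3 panels all Cbx3 siRNA arrays lie below all 3XHMT and control arrays, and in the right 2 panels, which hold the dim probe sets, the groups overlap.

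The other 2 Cbx3 probe sets were dim, near or below the median of all probe sets, 5.89. The mean of 1432628_at, 5.90, lay just above that median. Probe set 1432628_at, the only one annotated to Cbx3 alone, read 5.90, 5.89 and 5.48 in Cbx3 siRNA arrays, 6.29 and 5.59 in 3XHMT arrays, and 5.77, 6.18 and 6.14 in control arrays. Probe set 1454305_at, whose mean lay below the median of all probe sets, read 5.06, 5.47 and 4.70 in Cbx3 siRNA arrays, 5.48 and 4.68 in 3XHMT arrays, and 5.51, 5.42 and 5.32 in control arrays. In both the groups overlapped. Their means were 82.9% (interval 58.7% to 117%) and 79.0% (53.3% to 117%) of control, with limma adjusted p of 0.988 and 0.967. These 2 were designed on the same transcript record and correlated with each other at 0.757 over the arrays, but with the 3 brighter probe sets at 0.17 to 0.54. The brighter 1416884_at and 1448504_a_at also share 1 record.

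In all, 2 of the 5 Cbx3 probe sets passed as lower in Cbx3 siRNA cells than in control cells, where 0.0400% of all probe sets did, and with the 18S set block 3 of 5 passed, where 1.99% of all probe sets did. The groups did not overlap in 3 of 5, against 5.84% of all probe sets lower without overlap. Leaving out any 1 of the 8 arrays kept the log2 difference of 1416884_at between -1.37 and -1.14 but took its adjusted p above the threshold each time, to 0.0617 without Cbx3 replicate 1, 0.228 without Cbx3 replicate 2, 0.174 without Cbx3 replicate 3, 0.101 without either 3XHMT replicate, and 0.130 to 0.134 without a control replicate. With the 18S set block it passed under every one of these omissions, with adjusted p of 0.00403 to 0.0268 and log2 differences of -1.43 to -1.08.

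The annotation gives 4 of the 5 Cbx3 probe sets a second symbol, Cbx3-ps5, a Cbx3 pseudogene, so the share of their signal that comes from each locus cannot be told from these arrays. The RefSeq gene table lists 6 Cbx3 pseudogenes, of which 1 is named in the platform annotation. The 4 include the 3 probe sets that separate the groups. Percentages of control are antilogs of differences in RMA signal, and signal near background compresses them. Where on the Cbx3 transcript the siRNA binds is not given in the sources used here, so no probe set could be placed relative to it.

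The ratio of Cbx3 signal to the same-numbered control differed among replicates. Relative to the control array of the same number, 1416884_at stood at 57.0%, 39.8% and 34.4% in Cbx3 siRNA replicates 1, 2 and 3. The same ratios were 53.9%, 40.0% and 39.2% in 1448504_a_at, and 49.1%, 40.3% and 27.5% in 1439421_x_at. In all 3 probe sets this ratio was highest in replicate 1 and lowest in replicate 3. Control replicate 3 was the highest control array in each, so the order rests in part on the control arrays. By signal alone, replicate 2 was the lowest in 1448504_a_at, at 11.28 against 11.58 in replicate 3. Of the dim probe sets, 1432628_at stood at 110%, 82.2% and 63.0%, and 1454305_at at 73.2%, 103% and 65.1%, so each had 1 pair above its control.

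**Figure D2:**
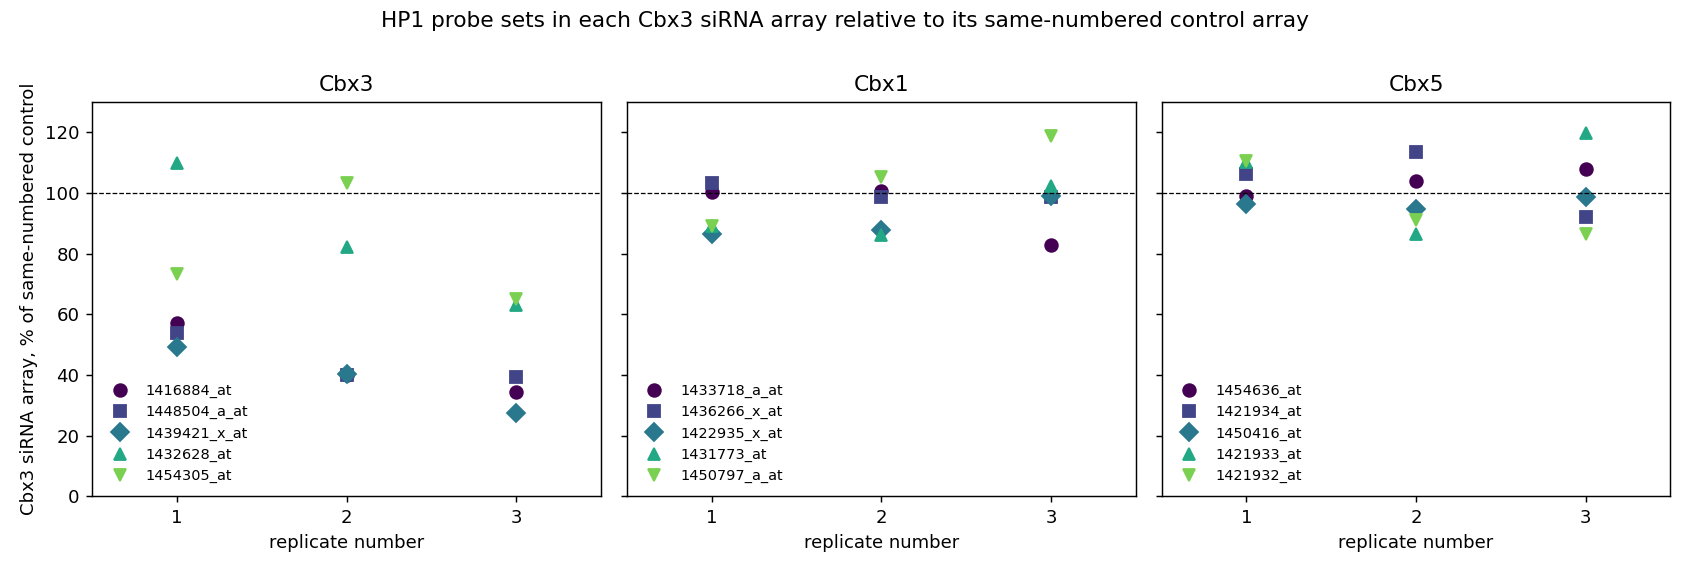
Signal of each HP1 probe set in the Cbx3 siRNA array as a percentage of the control array with the same replicate number (vertical axis, from 0), by replicate number (horizontal axis), in panels for Cbx3, Cbx1 and Cbx5; the dashed line marks 100%. The 3 brighter Cbx3 probe sets lie between 27.5% and 57.0% in every pair, while Cbx1 and Cbx5 probe sets scatter around 100%.

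Cbx1, which encodes HP1 beta, showed no detectable difference in Cbx3 siRNA cells. Its probe set with the highest signal, 1433718_a_at, read 10.99, 11.08 and 10.77 in Cbx3 siRNA replicates, 11.08 and 10.92 in 3XHMT replicates, and 10.99, 11.07 and 11.05 in control replicates. Apart from the 10.77 of Cbx3 siRNA replicate 3, the 8 arrays lay within a narrow band, and the groups overlapped. The means were 10.95 ± 0.16, 11.00 ± 0.11 and 11.03 ± 0.042 (SD, n = 3, 2 and 3). Cbx3 siRNA arrays averaged 94.2% of control, with a 95% interval of 78.5% to 113% (limma, adjusted p = 1.00). By pair the percentage was 100.3%, 100.8% and 82.7%, so only the Cbx3 siRNA array of pair 3 lay below its control.

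The other Cbx1 probe sets gave 100.2% (1436266_x_at, interval 82.6% to 122%), 90.9% (1422935_x_at, 72.1% to 115%), 92.4% (1431773_at, 72.4% to 118%) and 103.6% (1450797_a_at, 82.5% to 130%) of control. 1436266_x_at read 10.18, 10.39 and 10.16 in Cbx3 siRNA arrays, 10.38 and 10.26 in 3XHMT arrays, and 10.13, 10.41 and 10.18 in control arrays. In it the number 2 array was the highest of its group in both Cbx3 siRNA and control. 1450797_a_at, which lay below the median of all probe sets, read 5.75, 5.63 and 5.64 in Cbx3 siRNA arrays, 5.44 and 5.40 in 3XHMT arrays, and 5.91, 5.56 and 5.39 in control arrays. The 5 Cbx1 probe sets did not track one another well, with Pearson r of -0.40 to 0.78 between pairs over the 8 arrays.

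Cbx5, which encodes HP1 alpha, likewise showed no detectable difference, with wider limits in the fit without a block. Its probe set with the highest signal, 1454636_at, read 11.31, 11.17 and 11.70 in Cbx3 siRNA replicates 1, 2 and 3, 11.21 and 11.83 in 3XHMT replicates 1 and 2, and 11.33, 11.11 and 11.59 in control replicates 1, 2 and 3. The highest array of each group was the one with the lowest 18S control signal, and whether the 18S signal has a part in this was not tested. The means were 11.39 ± 0.28, 11.52 ± 0.43 and 11.34 ± 0.24 (SD, n = 3, 2 and 3). Cbx3 siRNA arrays averaged 103.5% of control (interval 73.5% to 146%, limma adjusted p = 1.00). The pairs gave 98.9%, 104% and 108%, a narrower range than the arrays of either group. With the 18S set block the interval of 1454636_at was 88.9% to 120%, beside 80.1% to 111% for Cbx1 probe set 1433718_a_at.

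Probe sets 1421934_at and 1450416_at, which followed each other at r = 0.886, gave 103.6% (interval 77.3% to 139%) and 96.5% (71.7% to 130%) of control. 1421934_at read 9.39, 9.69 and 9.78 in Cbx3 siRNA arrays, 9.32 and 9.64 in 3XHMT arrays, and 9.30, 9.51 and 9.89 in control arrays. In both the Cbx3 siRNA and the control group its number 1 array was the lowest and its number 3 array the highest. 1421933_at gave 104.5% (66.1% to 165%) and 1421932_at, below the median of all probe sets, 95.5% (75.0% to 122%). 1421933_at was the most scattered HP1 probe set, reading 7.69, 6.61 and 7.44 in Cbx3 siRNA arrays, 6.94 and 7.03 in 3XHMT arrays, and 7.55, 6.82 and 7.17 in control arrays.

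Of the 10 Cbx1 and Cbx5 probe sets, 0 passed in either direction between Cbx3 siRNA and control cells, where 0.0777% of all probe sets passed (limma). At an unadjusted p under 0.05 there were also 0. All 10 overlapped between the groups. Beside this, 5.84% of all probe sets were lower without overlap, and the share higher without overlap was not counted. The intervals set the limits of this reading. Without a block, the upper limits for Cbx1 over the 4 probe sets above the median signal were 113% to 122% of control. For Cbx5 they were 130% to 165%. With the 18S set block the highest of these upper limits were 116% for Cbx1 and 130% for Cbx5. With these arrays, increases within the limits of a fit were not distinguishable from no change in that fit.

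**Figure D3:**
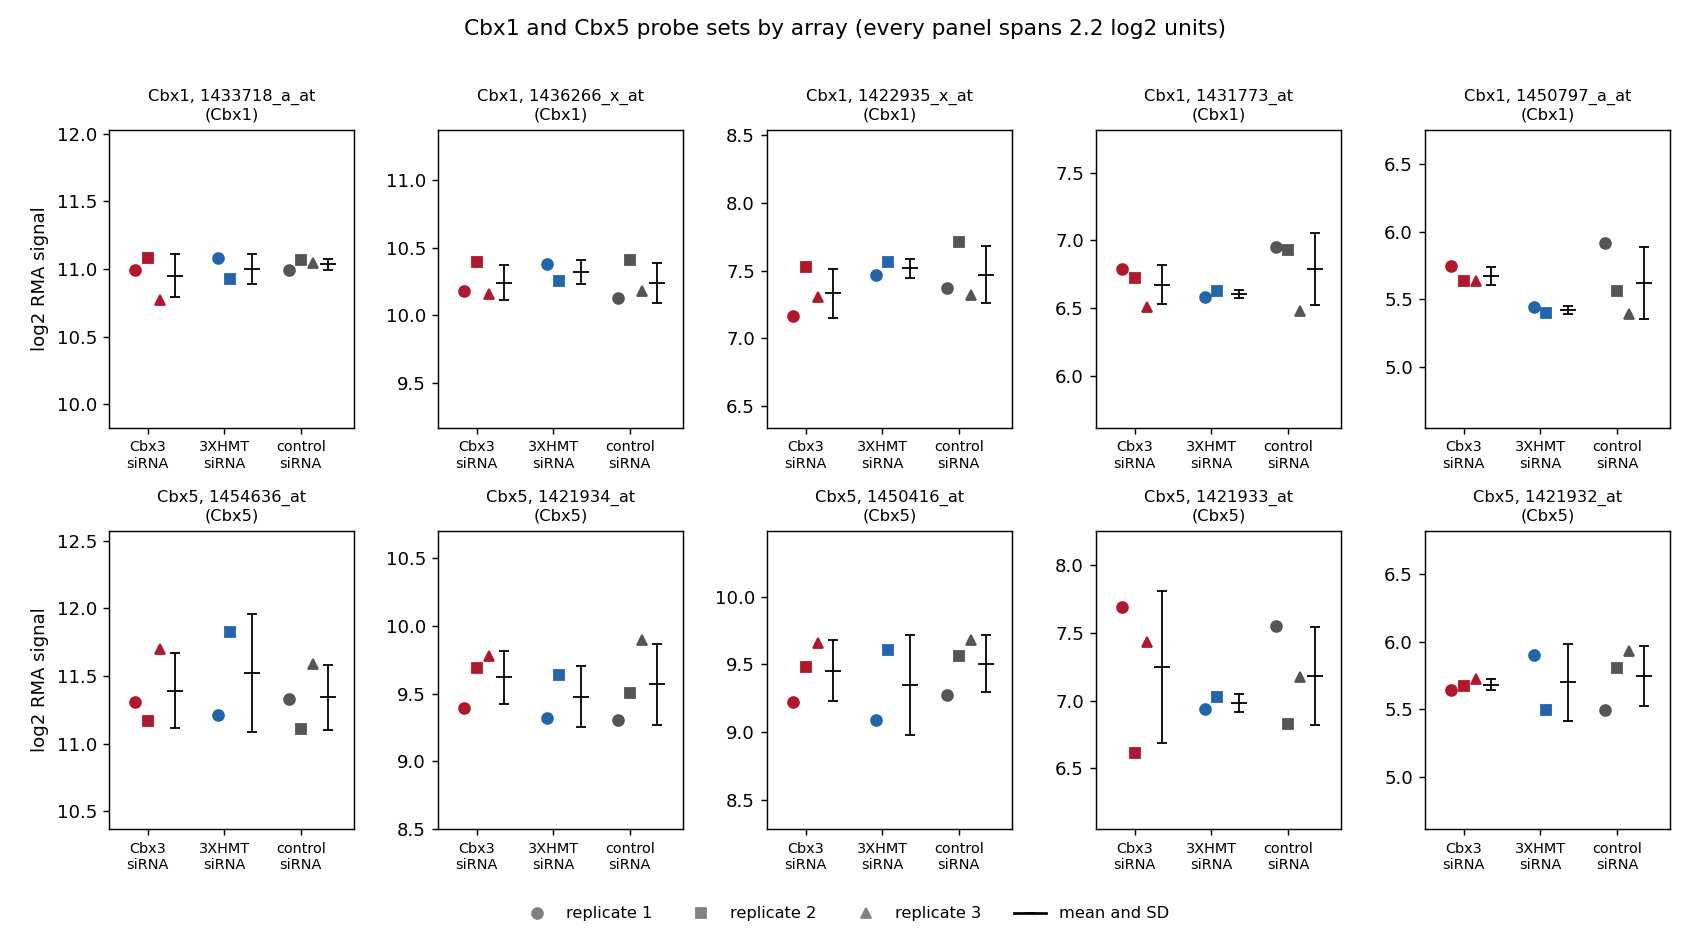
Log2 RMA signal of the 5 Cbx1 probe sets (upper row) and 5 Cbx5 probe sets (lower row) by siRNA group, with 1 symbol per array by replicate number and the mean and SD of each group as a bar; every panel spans the same log2 range as the Cbx3 panels. Cbx3 siRNA and control arrays overlap in all 10 panels, and in Cbx5 probe set 1454636_at the highest array of each group is the one with the lowest 18S signal.

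Where the writers of the HP1 mark were targeted, no HP1 probe set passed. Against control, 0 of 15 did so in 3XHMT cells (limma, adjusted p = 1.00 for each, 0 of 15 at an unadjusted p under 0.05), where 0.0555% of all probe sets passed. All 15 overlapped between 3XHMT and control, where 15.4% of all probe sets did not. Cbx3 probe set 1416884_at stood at 93.0% of control (interval 71.4% to 121%), 1448504_a_at at 95.4% (72.8% to 125%) and 1439421_x_at at 92.6% (68.3% to 125%). Within the sets of arrays alike in 18S signal, 1416884_at stood at 97.6% in 3XHMT replicate 1 over control replicate 2, and at 81.1% in 3XHMT replicate 2 over control replicate 3. Cbx1 probe set 1433718_a_at stood at 97.6% (79.6% to 120%) and Cbx5 probe set 1454636_at at 113.1% (77.2% to 166%). The other 10 probe sets lay between 79.6% and 105.6% of control. Only 2 arrays carry the 3XHMT values, and none of the 3 targets passed in them, each read only at its brightest probe set with 1 symbol. Against control, Setdb1 differed by -0.66 (adjusted p = 0.556), Ehmt2 by -0.58 (1.00) and Ehmt1 by -0.33 (1.00) on the log2 scale (limma).

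Set directly against each other, 3XHMT cells held more Cbx3 signal than Cbx3 siRNA cells, while no Cbx1 or Cbx5 probe set passed. In 1416884_at the 3XHMT mean was 217% of the Cbx3 siRNA mean (interval 167% to 283%, limma adjusted p = 0.0380), in 1448504_a_at 217% (166% to 285%, 0.0418) and in 1439421_x_at 244% (180% to 331%, 0.0384). These 3 of 5 Cbx3 probe sets passed as higher, where 0.315% of all probe sets did (2.50% with the 18S set block, where the same 3 passed), and they did not overlap, where 11.8% were higher without overlap. Without 3XHMT replicate 1 the adjusted p of 1416884_at was 0.218, without 3XHMT replicate 2 it was 0.197, and over all single omissions it ran from 0.0503 to 0.218 with log2 differences of 1.04 to 1.27. The dim probe sets 1432628_at and 1454305_at differed by 0.18 and 0.01 on the log2 scale (adjusted p = 0.975 and 1.00). Of the 10 Cbx1 and Cbx5 probe sets 0 passed (limma, 0 at an unadjusted p under 0.05). 1433718_a_at of Cbx1 stood at 103.6% of the Cbx3 siRNA mean (84.4% to 127%) and 1454636_at of Cbx5 at 109% (74.6% to 160%). The dim Cbx1 probe set 1450797_a_at was lower in both 3XHMT arrays than in all Cbx3 siRNA arrays, at 5.42 ± 0.031 against 5.67 ± 0.066 (SD, n = 2 and 3), or 83.9% (65.1% to 108%, limma adjusted p = 0.818), where 11.5% of all probe sets were lower without overlap.

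**Figure D4:**
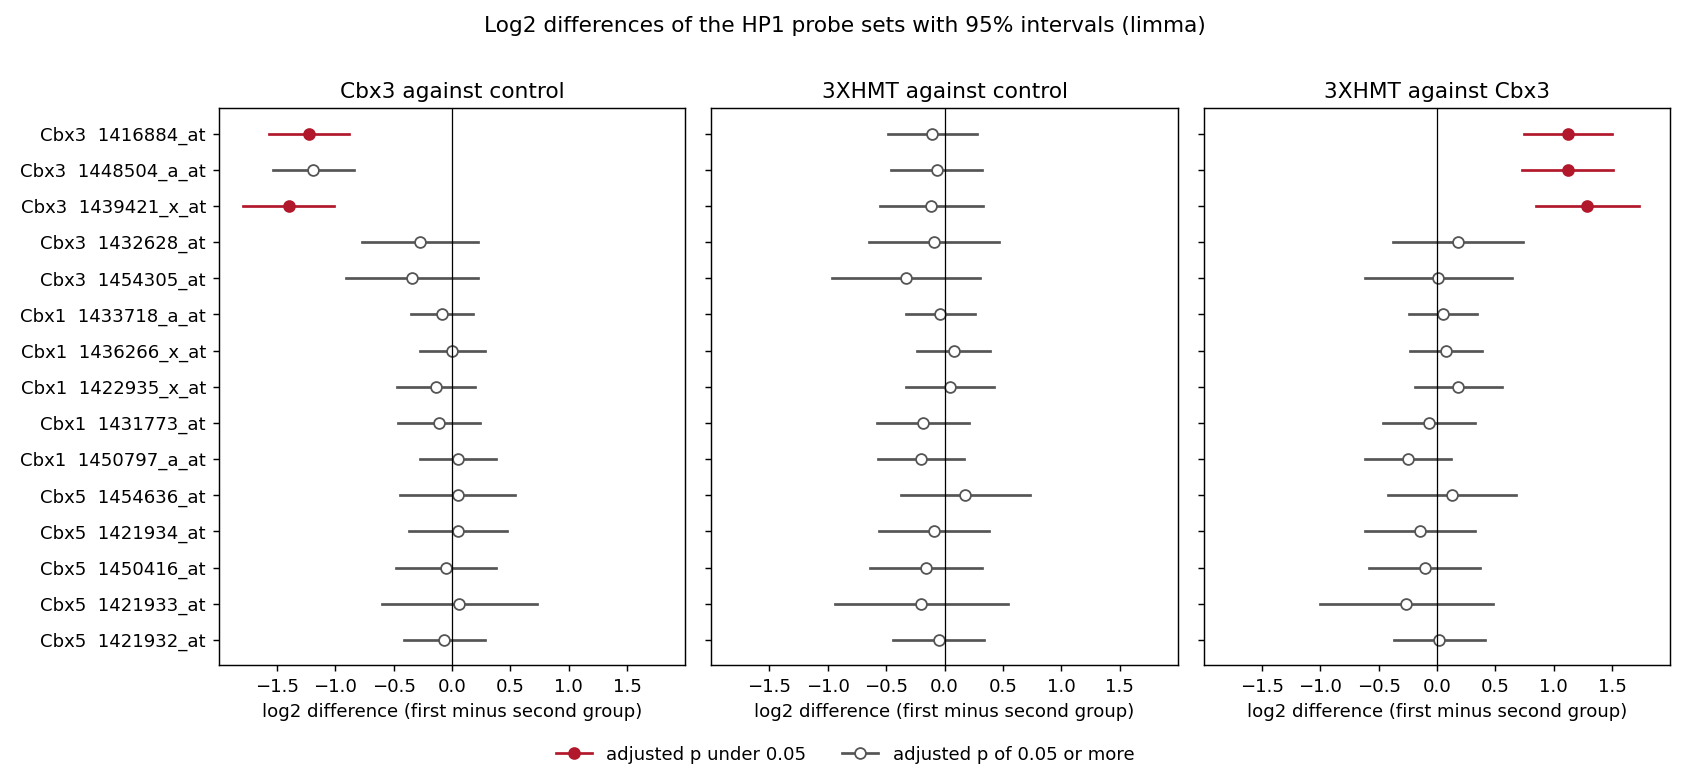
Log2 differences (horizontal axes, first minus second group of each panel title) of the 15 HP1 probe sets, with 95% intervals from limma as bars; filled red symbols passed an adjusted p of 0.05 and open symbols did not. Only Cbx3 probe sets are filled, 2 in Cbx3 against control at -1.23 and -1.40 and 3 in 3XHMT against Cbx3 at 1.12 to 1.29; 3XHMT against control has 0.

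Across the 3 groups, in Cbx3 the Cbx3 siRNA group was lowest, and 3XHMT and control did not differ beyond their spread. In Cbx1 and Cbx5 no pair of groups passed, and the groups overlapped in every probe set and comparison except the dim Cbx1 probe set 1450797_a_at between 3XHMT and Cbx3 siRNA arrays. Comparisons that share control arrays, or share Cbx3 siRNA arrays, are not independent of each other.

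The head-to-head neighbours did not pass either way. Hnrnpa2b1 encodes an RNA-binding splicing factor, and its probe set with the highest signal, 1420365_a_at, read 13.38, 13.36 and 13.25 in Cbx3 siRNA arrays, 13.36 and 13.30 in 3XHMT arrays, and 13.40, 13.30 and 13.14 in control arrays. It stood at 103.6% of control in Cbx3 siRNA cells (interval 87.3% to 123%), beside the 42.8% of Cbx3. Its other 3 probe sets lay at 109.7% to 123.8%, the highest being 1433829_a_at (interval 104% to 147%, limma adjusted p = 0.512). Hnrnpa1, also a splicing factor gene, stood at 106.5% (84.1% to 135%) in 1436549_a_at. Its 6 probe sets, 3 of which also carry symbols of other loci, lay between 94.5% and 106.5%. Snx10, a sorting nexin gene on the far side of Cbx3, stood at 74.6% of control in Cbx3 siRNA cells (61.4% to 90.6%, adjusted p = 0.364) and at 69.7% in 3XHMT cells (56.1% to 86.7%, adjusted p = 0.603). Nfe2l3, a transcription factor gene near Cbx3, stood at 68.9% of control in Cbx3 siRNA cells (adjusted p = 0.539), with both group means below the median of all probe sets. Snx11 and Nfe2l1 beside Cbx1 stood at 100.3% and 106.0%, and Smug1 beside Cbx5 at 99.2%. Of 9 measured genes around the HP1 loci 0 passed (limma, 2 lower at an unadjusted p under 0.05), where 0.121% of all genes passed in either direction.

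Of 33 genes whose proteins bind or recruit HP1, 31 were measured. Between Cbx3 siRNA and control cells 0 passed (limma, 1 higher at an unadjusted p under 0.05), where 0.121% of all genes passed. Among the 31, 13 differences were above 0 and 18 below, with a median of -0.07 on the log2 scale, against 0.01 over all genes. The gene nearest to the threshold was Trim24, which encodes TIF1 alpha, a bromodomain cofactor that binds HP1. It read 10.79, 11.00 and 10.95 in Cbx3 siRNA arrays, 10.78 and 10.54 in 3XHMT arrays, and 9.90, 9.55 and 10.07 in control arrays. Both 3XHMT arrays lay above every control array, where 15.4% of all probe sets did not overlap between those groups in either direction. In Cbx3 siRNA cells the fold was 2.11 (adjusted p = 0.0686), and it passed with the 18S set block (adjusted p = 0.00680), where 2.25% of all genes passed as higher. In 3XHMT cells the fold was 1.77 (adjusted p = 0.332, and 0.0989 with the block), against the same control arrays.

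The other Trim24 probe sets also lay higher in Cbx3 siRNA cells than in control cells, by 1.64-fold in 1427259_at (adjusted p = 0.308, and 0.0283 with the 18S set block) and 2.00-fold in 1446295_at (0.877, and 0.0785 with the block). Dnmt3a, a de novo DNA methyltransferase, differed by 0.33 (adjusted p = 0.713) and Orc2, an origin recognition subunit, by -0.29 (0.804) on the log2 scale. Trim28, the KRAB zinc finger corepressor that recruits HP1, averaged 12.82 ± 0.13 in Cbx3 siRNA arrays and 12.72 ± 0.18 in control arrays (SD, n = 3 each). Between 3XHMT and control 0 of the 31 passed (limma, 1 higher at an unadjusted p under 0.05), where 0.0824% of all genes did, with 18 above 0, 13 below and a median of 0.06. Dnmt3b, the other de novo methyltransferase, differed by 0.94 (adjusted p = 1.00), with control arrays spread over an SD of 0.83. Between 3XHMT and Cbx3 siRNA cells 0 passed (limma, 3 higher at an unadjusted p under 0.05), where 0.819% of all genes did, with a median of 0.02.

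**Figure D5:**
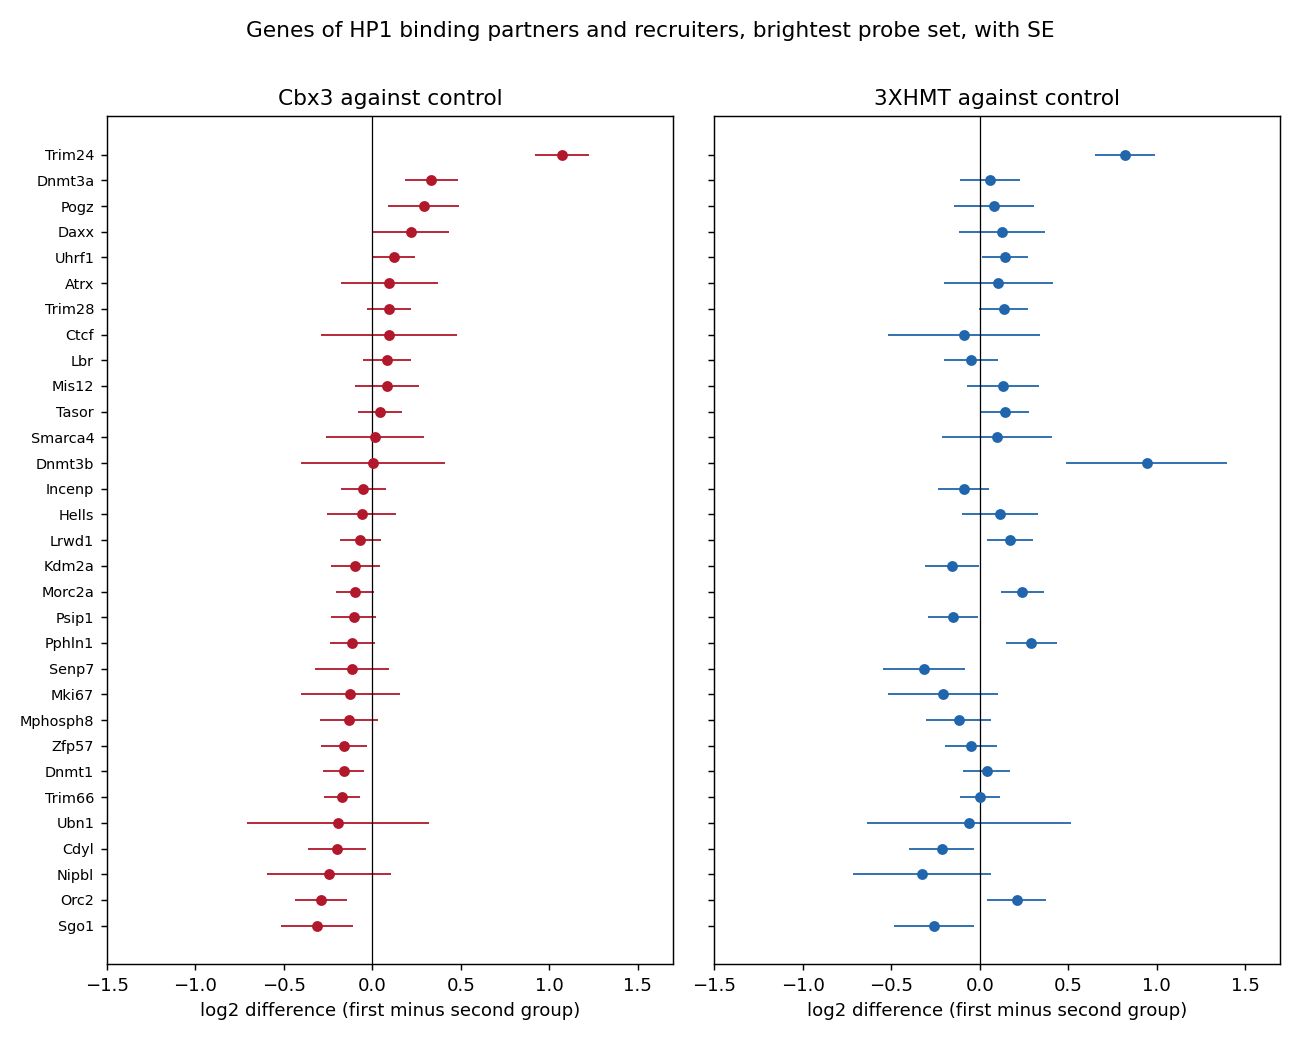
Log2 difference against control (horizontal axes) of the 31 measured genes whose proteins bind or recruit HP1, each at its probe set with the highest mean among those with 1 symbol, in Cbx3 siRNA cells (left) and 3XHMT cells (right), with standard errors as bars and genes in the order of the left panel. Trim24 is at the top with 1.07 and 0.82, and no gene passed an adjusted p of 0.05 in either panel.

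Enzymes that write H3K9 and H4K20 methylation, and their cofactors, were measured for 13 of 14 genes. In Cbx3 siRNA cells against control 0 passed, where 0.121% of all genes did, with 7 above 0, 6 below and a median of 0.02. Beside 3258 of 45037 probe sets at an unadjusted p under 0.05, 1 listed gene was higher and 2 were lower (limma). Those 3 were Kmt5b, an H4K20 methyltransferase that HP1 recruits, at 0.28 (adjusted p = 0.550), Suv39h2, an enzyme for H3K9 trimethylation, at -0.36 (0.556), and Atf7ip, the Setdb1 cofactor, at -0.34 (0.630). In 3XHMT cells against control 0 passed, where 0.0824% of all genes did, with a median of -0.01 (limma, 1 higher and 1 lower at an unadjusted p under 0.05). Atf7ip averaged 10.45 ± 0.0043 in 3XHMT arrays (SD, n = 2) and 9.73 ± 0.091 in Cbx3 siRNA arrays (n = 3), a log2 difference of 0.72 that passed with the 18S set block (adjusted p = 0.0176) and not without it (0.120). Setdb1 and Ehmt2 likewise passed with the block as lower in 3XHMT than in Cbx3 siRNA cells (adjusted p = 0.0268 and 0.0200) and not without it (0.267 and 0.344). These 3 of 13 stand beside 6.78% of all genes that passed in either direction in that contrast with the block.

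The Polycomb members of the chromobox family read H3K27me3 in place of H3K9 methylation. Of the 4 analysed here, 0 passed between Cbx3 siRNA and control cells (limma, 1 higher at an unadjusted p under 0.05), where 0.121% of all genes passed. All 4 lay above 0 with a median of 0.17, where 53.0% of all genes lay above 0 and the median was 0.01. Cbx7 differed by 0.42 (adjusted p = 0.598), Cbx8 by 0.21 and Cbx2 by 0.07. In 3XHMT cells 2 lay above control and 2 below, with a median of 0.00. There 0 passed (limma, 0 at an unadjusted p under 0.05), where 0.0824% of all genes passed. Chromosomal passenger and centromere genes were all measured (14 of 14), and 0 passed in Cbx3 siRNA cells (limma, 0 at an unadjusted p under 0.05). Of them 4 lay above 0 and 10 below, with a median of -0.18, where 0.121% of all genes passed, 53.0% lay above 0 and the median was 0.01. The lowest p in that list belonged to the spindle checkpoint kinase gene Bub1b at -0.25 (adjusted p = 0.937), the outer kinetochore gene Ndc80 at -0.33 (0.957) and the inner kinetochore gene Cenpc1 at -0.23 (0.978). In 3XHMT cells the median of that list was -0.02, with 6 above 0 and 8 below. There 0 passed (limma, 0 at an unadjusted p under 0.05), where 0.0824% of all genes passed.

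Markers used to check the cells also moved between groups, and their part in the HP1 values was not tested. Of the 12 pluripotency genes 1 passed in Cbx3 siRNA cells against control, Nanog, at 3.31 on the log2 scale (limma, adjusted p = 0.0428), where 0.121% of all genes passed. In 3XHMT cells against control 1 passed, Dppa4, at 2.56 (adjusted p = 0.0267), where 0.0824% of all genes passed. With the 18S set block Nanog and Zfp42 passed beside it, 3 of 12 in all (adjusted p = 0.00474, 0.000286 and 0.00271 for Nanog, Zfp42 and Dppa4), where 1.03% of all genes passed. Zfp42, which encodes the pluripotency marker REX1, averaged 10.12 ± 0.85 in 3XHMT arrays (SD, n = 2), 6.78 ± 0.61 in Cbx3 siRNA arrays (n = 3) and 7.03 ± 0.47 in control arrays (n = 3).

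In 3XHMT against Cbx3 siRNA cells, the contrast in which 3 Cbx3 probe sets were higher, 2 of the 12 pluripotency genes passed as higher, Dppa4 at 2.88 (limma, adjusted p = 0.0102) and Zfp42 at 3.34 (0.0320), where 0.819% of all genes passed. With the 18S set block 3 passed, where 6.78% of all genes did. Of 11 fibroblast genes 0 passed in this contrast (limma, 3 lower at an unadjusted p under 0.05), and with the 18S set block the same 3 passed as lower. They were the matrix genes Postn at -0.53 and Col3a1 at -0.79 and the transcription factor gene Twist1 at -0.74, and their group means lay below the median of all probe sets in both groups. The summed log2 signal of the fibroblast list ran from 72.1 to 72.9 in 3XHMT arrays and from 73.3 to 75.9 in Cbx3 siRNA arrays, and the list's median difference was -0.25, against 0.00 over all genes. Against control, 0 fibroblast genes passed (limma, 1 higher in Cbx3 siRNA cells and 3 lower in 3XHMT cells at an unadjusted p under 0.05). Of all genes, 0.121% passed in Cbx3 siRNA cells and 0.0824% in 3XHMT cells against control. In the blood list 0 passed in any of the 3 comparisons (limma, 0 at an unadjusted p under 0.05).

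The genes whose signal followed each HP1 gene most closely were ranked over the 8 arrays among 11523 genes with signal above the median of all probe sets. For Cbx3 they were Ctnnd2 (Pearson r = 0.988), Cnn3 (0.982), Tlcd5 (0.980), Erlin2 (0.977) and Fxyd6 (0.977), and 81 genes had r above 0.9. Because the Cbx3 siRNA arrays set the Cbx3 range, these are genes lower in the same 3 arrays. For Cbx1 they were Atpaf1 (0.963), Srsf1 (0.951), Riox1 (0.937), Stimate (0.929) and Arid1b (0.923), with 19 genes above 0.9. For Cbx5 they were Exoc2 (0.995), Zfyve26 (0.990), Ralgapb (0.986), Necap1 (0.984) and Rnf181 (0.983), with 311 genes above 0.9. After group means were taken off, the closest genes were Gpd1 for Cbx3 (0.974), Hira for Cbx1 (0.996) and Ralgapb for Cbx5 (0.997), and 1210 genes followed Cbx5 above 0.9. These correlations share the arrays' normalization and 18S sets and are given as a description.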

How the data were processed

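RNA from 8 samples of pre-iPSCs was measured on 1 Affymetrix array each. The deposited table holds log2 expression values that the authors made with RMA, per the submitters' processing notes. The version and settings of RMA were not given in the sources used here. RMA corrects background, forces arrays to 1 distribution and summarises probes, so a shift shared by most genes is removed. Of 45101 probe sets, 64 controls were left out and 45037 tested. The number of arrays limits the precision.

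Names came from the platform annotation, with 1 symbol for 34945 probe sets, several for 932 and none for 9160. Neighbours and start-site sequences came from RefSeq tables for GRCm38.p6. A linear model of group means over the 8 arrays was fitted in limma 3.58.1 (R 4.3.3; functions lmFit and eBayes), with two-sided tests and 5 residual degrees of freedom, and p-values were Benjamini-Hochberg adjusted over all probe sets, with calls at 0.05. Gene lists used each gene's probe set of highest mean among probe sets with 1 symbol (18193 genes). Cbx3 is thus counted there by the dim 1432628_at. The adjusted p came from the fit of all probe sets, and the share of genes called is counted in that same set of genes. The script was tested on simulated data, with known changes in the Cbx3 siRNA group. Against control it recovered 39% of 100 log2 changes of size 1 and 82% of 100 of size 2, with 6 false calls. A change of size 1 can thus be missed. With 3 arrays against 3, an exact permutation test cannot go below 0.10, so none was used.

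The rule for named genes covered all HP1 probe sets, the genes beside them, list members that passed or had the 3 lowest p per comparison, and the 5 genes of highest correlation, and the text prints a part of those it covers. Trim28 and Pou5f1, the 3 siRNA targets and the further Trim24 probe sets were added outside that rule. The lists covered HP1 binding partners and recruiters, H3K9 and H4K20 methyltransferases with cofactors, Polycomb chromobox genes, chromosomal passenger and centromere genes, genes around the HP1 loci, and pluripotency, fibroblast and blood markers. Chaf1a, Adnp, Suv39h1 and Hbb-bs were among the listed genes not measured by a probe set of their own. The members and lists were chosen with earlier results of these data known.

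Deviations of same-numbered Cbx3 siRNA and control arrays from their group means correlated at 0.51, 0.62 and 0.74, so the numbers were taken to pair these arrays. Same-numbered 3XHMT and control arrays gave 0.048 and -0.66 and were not taken as pairs. Alternatives were 2 forms of block on the replicate number, a block on the 18S sets, and the arrays of 2 groups only. Others were cyclic loess, median centring, a trended robust prior, array weights, and omission of each array. Further fits kept the brightest probe set of each gene, by the first symbol where several were given, or left out dim probe sets. Dim here means below the median signal. Omission together with the 18S set block was added after seeing the data.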

Additional observations from a re-analysis of the deposited data

How the results depend on the processing

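In Cbx3 siRNA cells against control the log2 difference of Cbx3 probe set 1416884_at was -1.23 with adjusted p of 0.101 in a fit of those groups alone and -1.22 (0.0504) after cyclic loess. Single omissions gave -1.37 to -1.14, and -1.43 to -1.08 with the 18S set block. With the replicate block over those 2 groups the adjusted p was 0.00242 for 1448504_a_at, and the replicate pairing changed no call of Cbx1 or Cbx5. In 3XHMT against Cbx3 siRNA cells 1416884_at gave 1.12 (0.0519) with the replicate block on the label numbers, 1.12 (0.101) for the groups alone, 1.04 (0.299) for the groups alone with the replicate block, and 1.05 (0.0516) with array weights. Both replicate blocks join 3XHMT arrays to others by numbers that were not taken as pairs. In the groups alone that block leaves Cbx3 replicate 3 without a partner, and 1.04 was also the log2 difference without that array. Single omissions gave 1.04 to 1.27, and 1.03 to 1.27 with the 18S set block, where the call was lost only without 3XHMT replicate 1 (1.08, 0.0510). A group left with 1 array is assumed to vary like the others. For 3XHMT against control the omissions gave -0.17 to -0.031.

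With the 18S set block the highest upper limits in Cbx3 siRNA against control, over probe sets above the median signal, were 116% for Cbx1 and 130% for Cbx5. Cbx1 and Cbx5 differences turned sign near 0, always without a call. Single omissions gave -0.15 to 0.0026 for Cbx1 and -0.10 to 0.17 for Cbx5 in Cbx3 siRNA against control, -0.11 to 0.042 and -0.13 to 0.48 in 3XHMT against control, and -0.038 to 0.13 and -0.18 to 0.44 in 3XHMT against Cbx3 siRNA. Cbx1 gave -0.038 in the last with 2 groups and the replicate block.

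Counts of probe sets called moved most. The 35 of Cbx3 siRNA against control became 153 (replicate block), 1547 (18S set block), 14 (2 groups), 1776 (2 groups, replicate block), 81 (brightest probe set per gene), 95 (array weights) and 0 to 14 (omissions, limma, against 3258 at an unadjusted p under 0.05 with all arrays). The 25 of 3XHMT against control became 67, 315, 3 and 4 under the first 4 of these settings, 42 (brightest), 11 (without dim probe sets) and 1 to 23 (omissions). The 238 of 3XHMT against Cbx3 siRNA became 433, 2099, 80 and 0 under the same 4 (the 0 with 3281 at an unadjusted p under 0.05), and 6 to 186 (omissions). In both contrasts with 3XHMT the replicate blocks used numbers that were not taken as pairs. The cause of these shifts was not tested.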
